A study of Mus musculus with 14 samples.

Results

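The collagen genes and the small leucine-rich proteoglycans of the connective tissue matrix were followed across 14 mouse brain libraries. Rows of the expression table were taken where the symbol had the form Col, number, a, number, or was Lum, Fmod, Dcn, Ogn, Bgn, Omd, Prelp or Aspn. Of 52 such rows, 37 reached 1 FPKM (fragments per kilobase of transcript, scaled to the mapped fragments of the library) in at least 2 of the 14 libraries, and these 37 of the 23375 genes in the table are described here. They comprise 31 of 44 collagen rows and 6 of 8 proteoglycan rows. The level in any library could bring a gene in, so the level rule itself used no contrast between groups. It can still favour genes that are high in 1 group or stage, and the gene families were chosen with earlier results of these data known. Just inside the rule stood Col5a3, which reached 1 FPKM only in the E19.5 KO2 libraries (1.11 and 1.10 FPKM). Just outside stood Col20a1, which reached it in 1 library only (1.09 and 0.929 FPKM in the adult KO2 libraries).

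Collagens are triple-helical proteins assembled from chains inside the cell and deposited outside it, where they form fibrils, basement membrane networks or beaded filaments. Small leucine-rich proteoglycans bind along collagen fibrils and regulate their spacing and growth. Brain tissue itself holds little fibrillar collagen: in the mouse it is made chiefly by fibroblasts of the meninges (the membranes around the brain) and of large vessels, while type IV collagen lies in the basement membranes of all brain vessels.

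The samples were poly(A) RNA from brains of mice derived through haploid embryonic stem cells, and of wild-type mice. The cells carried deletions of DMRs, differentially methylated regions that control imprinted genes. E19.5 KO7 brains lacked 7 of them, those of Gnas, Grb10, Igf2r, Kcnq1, Nespas, Peg3 and Snrpn. E19.5 KO2 and adult KO2 brains lacked the H19 and IG DMRs, and adult KO3 brains lacked these and the Rasgrf1 DMR. The controls were E19.5 wild type and 2 sets of adult wild type, set 1 and set 2. Each of these 7 groups had 2 libraries. By knowledge of the study rather than its labels, KO7 mice carried a pair of paternal genomes and KO2 and KO3 mice a pair of maternal genomes, so that deletion and parental origin of the genome cannot be told apart. The labels call the adults only "adult", and do not say that replicates were separate animals, so every p-value measures only the spread between these libraries.

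Across the series, each library had 12701 to 13398 genes at or above 1 FPKM, and Pearson's r across genes between the libraries of a group was 0.964 to 0.983. The deleted regions are not transcripts, so no library could show their absence directly. Rasgrf1 read 19.7 and 14.8 FPKM in adult KO2, 104 and 85.3 in adult KO3, 89.5 and 100.5 in set 1 and 149 and 97.2 in set 2. The Y-linked gene Eif2s3y read 22.6 and 25.0 FPKM in the KO7 libraries and at most 0.0274 in the other 12, and Xist, the RNA of the inactive X chromosome, read 0.0159 and 0.0402 in KO7, 1.498 and 84.0 in E19.5 KO2 and 117 and 106 in E19.5 wild type. Reads of its antisense partner Tsix cannot be separated from it, since the use of strand is not stated. Sex and the KO7 genotype cannot be told apart in any comparison below. Skeletal muscle markers summed to 45.7 and 13.4 FPKM in the E19.5 KO2 libraries, against at most 15.8 in the others. That KO2 library (replicate 1), adult KO3 replicate 2 (r = 0.964 with its pair) and set 2 replicate 2 were taken as libraries that stand apart from an earlier reading of these data, and counts without the 3 together are given where they move. Set 2 replicate 2 (r = 0.982 with its pair) was not set apart by that measure. In the 4 adult KO3 and set 2 libraries low values had been removed before deposit: 9994 genes were listed at 0 in all 4, among them 9 of the 37 genes described here, and 6396 of the 9994 had a value above 0 in another library.

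Summed over the 37 genes, levels were lower in every adult library than in any E19.5 library, and highest in E19.5 KO7. The adult sums were 133 and 135 FPKM in KO2, 173 and 160.2 in set 1, 105 and 116 in KO3 and 122 and 106 in set 2. The E19.5 sums were 415 and 400.4 in KO7, 297 and 279.8 in KO2 and 211 and 266 in wild type. Col1a1, Col1a2 and Col3a1 made up 31.6 and 30.3% of the sum in KO7, 16.3 and 16.7% in E19.5 KO2 and 18.4 and 21.7% in E19.5 wild type. The type IV sum was 79.2 and 84.9 FPKM in KO7, 95.4 and 83.6 in E19.5 KO2 and 47.5 and 54.2 in E19.5 wild type, so that both embryonic knockouts lay above wild type for this family. For the 6 proteoglycans the sums were 78.0 and 63.1 FPKM in KO7, 32.2 and 31.4 in E19.5 KO2 and 29.9 and 37.7 in E19.5 wild type, and the E19.5 KO2 libraries lay within the wild-type range.

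**Figure D1:**
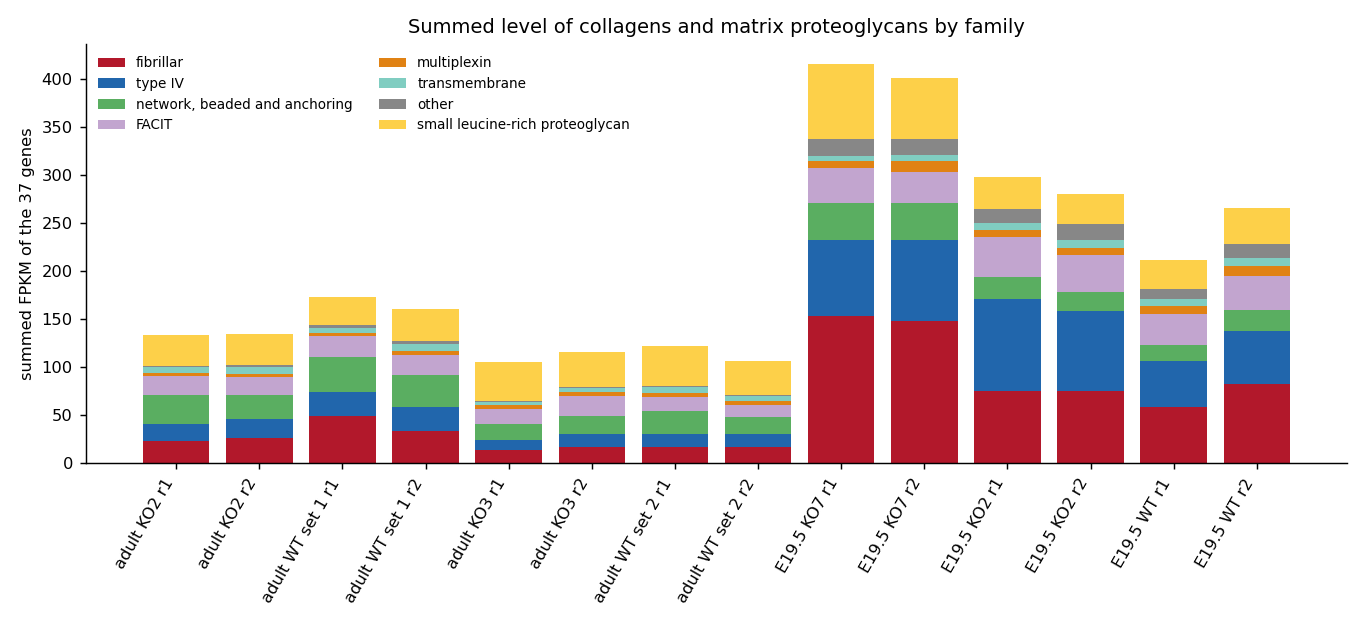
Summed FPKM of the 37 genes in each of the 14 libraries (r1 and r2 are the replicates of a group), stacked by family. The KO7 bars reach 415 and 400.4 FPKM, against 211 and 266 in E19.5 wild type, and the fibrillar and proteoglycan segments are taller there than in any other library.

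The genomic DNA at the starts of 3 of the main collagen loci is shown because their RNAs behaved differently below: Col1a2 and Col3a1 passed as higher in KO7 against both wild type and KO2, and the head-to-head pair Col4a1 and Col4a2 passed as higher in both embryonic knockouts against wild type. Sequences are RefSeq's on GRCm38.p6 (the expression values were made on mm9), 5′ to 3′ on the plus strand, with each GC box (GGGCGG, on either strand) in capitals. Col1a2 occupies chr6:4505368-4505617 and Col3a1 chr1:45311288-45311537, each the 250 bases before the start. The Col4a1-Col4a2 stretch, chr8:11312777-11312854, is shared by the windows of the divergent genes and spans both starts, which RefSeq places at 11312826 for Col4a1 (minus strand) and 11312805 for Col4a2 (plus strand). Its GC box lies in the 22 bases where the transcripts overlap, after both starts.
Col1a2: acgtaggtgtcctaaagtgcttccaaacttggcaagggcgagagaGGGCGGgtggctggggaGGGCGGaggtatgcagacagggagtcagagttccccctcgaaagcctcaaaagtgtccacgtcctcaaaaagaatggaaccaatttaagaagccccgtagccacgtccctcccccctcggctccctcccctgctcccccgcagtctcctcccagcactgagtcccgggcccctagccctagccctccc
Col3a1: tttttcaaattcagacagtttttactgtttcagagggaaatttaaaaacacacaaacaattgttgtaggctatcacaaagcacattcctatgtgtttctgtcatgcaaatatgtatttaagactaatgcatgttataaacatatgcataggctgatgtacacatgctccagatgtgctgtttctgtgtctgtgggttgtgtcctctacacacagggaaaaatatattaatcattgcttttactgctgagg
Col4a1-Col4a2: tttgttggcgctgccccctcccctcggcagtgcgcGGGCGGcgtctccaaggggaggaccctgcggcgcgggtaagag
The Col1a2 stretch holds 2 GC boxes, the shared Col4a1-Col4a2 stretch 1 and the Col3a1 stretch none. Windows of 250 bases before and 50 after the start were available for 28 of the 37 genes. In these, a GC box on either strand was found for 19 genes (67.9%), against 68.8% of the 10593 tested genes with a window. CCAAT was found for 11 (39.3%, against 42.8%), TATAAA for 3 (10.7%, against 8.75%) and CAGACA, a SMAD-type element, for 7 (25.0%, against 19.1%). In each case the share lay near that of all tested genes, and a match in the letters is not a binding site.

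E19.5 KO7 brains were compared with E19.5 wild type, on log2(FPKM + 1) in a limma fit over all 14322 genes with at least 1 FPKM in 2 libraries, with Benjamini-Hochberg adjustment and a threshold of 0.05. Changes are differences on that log2 scale, which understates the change of low genes, given with their standard error. All 37 genes entered this fit. The type I, III and VI collagens, the main type IV chains, Col12a1 and 3 proteoglycans rose: 12 of 37 genes (32.4%) passed the threshold as higher, against 3.02% of all genes tested, and none passed as lower, against 1.43%. At an unadjusted p under 0.05 there were 26 of the 37 (3026 of all genes). The median change of the 37 was 0.45, beside 0.005 for all genes, and 26 of the 37 lay above 0. In bulk RNA, fewer cells of a type and less RNA per cell cannot be told apart, here and in every comparison below.

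Among the fibrillar collagens, which form the rope-like fibrils of connective tissue, 3 of 11 rose. Col1a1, the major chain of type I collagen, read 43.4 and 40.3 FPKM in KO7, 17.7 and 17.8 in E19.5 KO2 and 11.5 and 15.4 in wild type (log2 change 1.58 ± 0.36, adjusted p = 0.0342 for KO7 against wild type). Col1a2, the partner chain, read 51.5 and 42.3 in KO7, 17.1 and 16.9 in KO2 and 15.5 and 21.2 in wild type (log2 change 1.32 ± 0.24, adjusted p = 0.0152). For each chain both KO7 libraries lay above every other library in the series. Col3a1, the chain of type III collagen found with type I in vessel walls and meninges, read 36.3 and 38.7 in KO7, 13.6 and 11.98 in KO2 and 11.8 and 21.2 in wild type (log2 change 1.19 ± 0.21, adjusted p = 0.0127). The other 8 fibrillar genes did not pass. Of these, Col5a1 (log2 change 0.47) and Col5a2 (0.51), whose type V chains nucleate type I fibrils, had values above 0, as did the cartilage collagen Col2a1 (0.32). Col11a2, a cartilage fibril chain, had the lowest value of the family (2.31 and 2.73 FPKM in KO7, 3.69 and 5.30 in wild type, log2 change -0.63 ± 0.21, adjusted p = 0.111). Col5a3, Col11a1, Col24a1 and Col27a1 lay between -0.31 and -0.012.

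All 3 measured chains of the main type VI collagen, which forms beaded filaments around cells, rose. Col6a1 read 15.4 and 14.3 FPKM in KO7, 8.59 and 8.65 in KO2 and 6.25 and 8.48 in wild type (log2 change 0.93 ± 0.18, adjusted p = 0.017). Its neighbour on chromosome 10, Col6a2, read 14.3 and 14.7 in KO7, 7.02 and 6.67 in KO2 and 6.19 and 8.96 in wild type (log2 change 0.87 ± 0.18, adjusted p = 0.0207). Col6a3, encoded on chromosome 1, read 4.35 and 5.85 in KO7, 2.11 and 1.53 in KO2 and 1.43 and 2.05 in wild type (log2 change 1.15 ± 0.18, adjusted p = 0.00765). The KO7 libraries did not overlap wild type for any of the 3 chains. The network-forming type VIII chains did not pass, with log2 changes of -0.24 for Col8a1 and 0.45 for Col8a2.

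In the type IV family, the sheet-forming collagens of basement membranes, 2 of 4 genes rose. Col4a1 read 39.9 and 42.5 FPKM in KO7 and 22.1 and 24.1 in wild type (log2 change 0.81 ± 0.17, adjusted p = 0.0237). Col4a2 read 35.0 and 38.0 in KO7 and 22.5 and 26.1 in wild type (log2 change 0.57 ± 0.13, adjusted p = 0.0353). These are the chains of the vascular basement membrane. The X-linked neighbours Col4a5 (3.09 and 3.12 FPKM in KO7, 2.16 and 3.07 in wild type, log2 change 0.20) and Col4a6 (0.25) did not pass. Col4a1 and Col4a2 overlap at their starts in RefSeq, and the use of strand in counting is not stated, so reads could be shared between them.

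Of the 6 fibril-associated (FACIT) collagens, which sit on the surface of fibrils, 1 rose: Col12a1, which coats type I fibrils, read 3.03 and 3.89 FPKM in KO7, 1.75 and 1.65 in KO2 and 1.57 and 2.02 in wild type (log2 change 0.67 ± 0.16, adjusted p = 0.0436). Col9a2 and Col9a3, chains of type IX collagen of cartilage fibrils, changed by -0.19 and -0.0054 and did not pass. Col16a1 (0.12), Col19a1 (-0.55), which in the mouse is made by neurons, and Col22a1 (0.34) did not pass either. No gene passed among the 2 multiplexins, which are basement membrane collagens (Col15a1, -0.69, and Col18a1, the source of endostatin, 0.48), the 2 transmembrane collagens (Col23a1, 0.075, and the neuronal Col25a1, -0.58) or Col26a1 (0.41).

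All 6 proteoglycans had higher means in KO7 and 3 of them passed. Lumican (Lum), which organises fibrils in transparent and soft connective tissue, read 5.58 and 5.76 FPKM in KO7, 0.846 and 0.820 in KO2 and 0.941 and 1.58 in wild type (log2 change 1.58 ± 0.20, adjusted p = 0.00301). No other library in the series exceeded 1.65 FPKM of Lum. Decorin (Dcn), its neighbour on chromosome 10 and a binder of type I collagen, read 25.5 and 17.1 in KO7, 8.07 and 9.21 in KO2 and 10.3 and 10.2 in wild type (log2 change 0.96 ± 0.19, adjusted p = 0.018). Fibromodulin (Fmod), which competes with lumican for fibrils, read 12.3 and 10.8 in KO7, 4.73 and 4.51 in KO2 and 3.76 and 7.16 in wild type (log2 change 1.01 ± 0.21, adjusted p = 0.0236). The KO7 libraries lay above both wild-type libraries for each of these genes. Biglycan (Bgn), the X-linked relative of decorin, read 20.7 and 18.4 in KO7 and 8.88 and 12.1 in wild type and did not pass (log2 change 0.85 ± 0.22, adjusted p = 0.0541). Osteoglycin (Ogn) read 8.68 and 7.44 in KO7 and 3.83 and 4.38 in wild type (log2 change 0.83 ± 0.22, adjusted p = 0.0568), and Prelp, which tethers basement membranes to matrix, read 5.21 and 3.61 in KO7 and 2.19 and 2.36 in wild type (log2 change 0.71 ± 0.23, adjusted p = 0.11). For these 3 genes the KO7 libraries were also above the wild-type ones, without passing. With 2 libraries a group, such separation adds little by itself, here and in every comparison. Its share over all genes was not counted. Ogn overlaps Cenpp in RefSeq, so its counts could include reads of that gene.

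**Figure D2:**
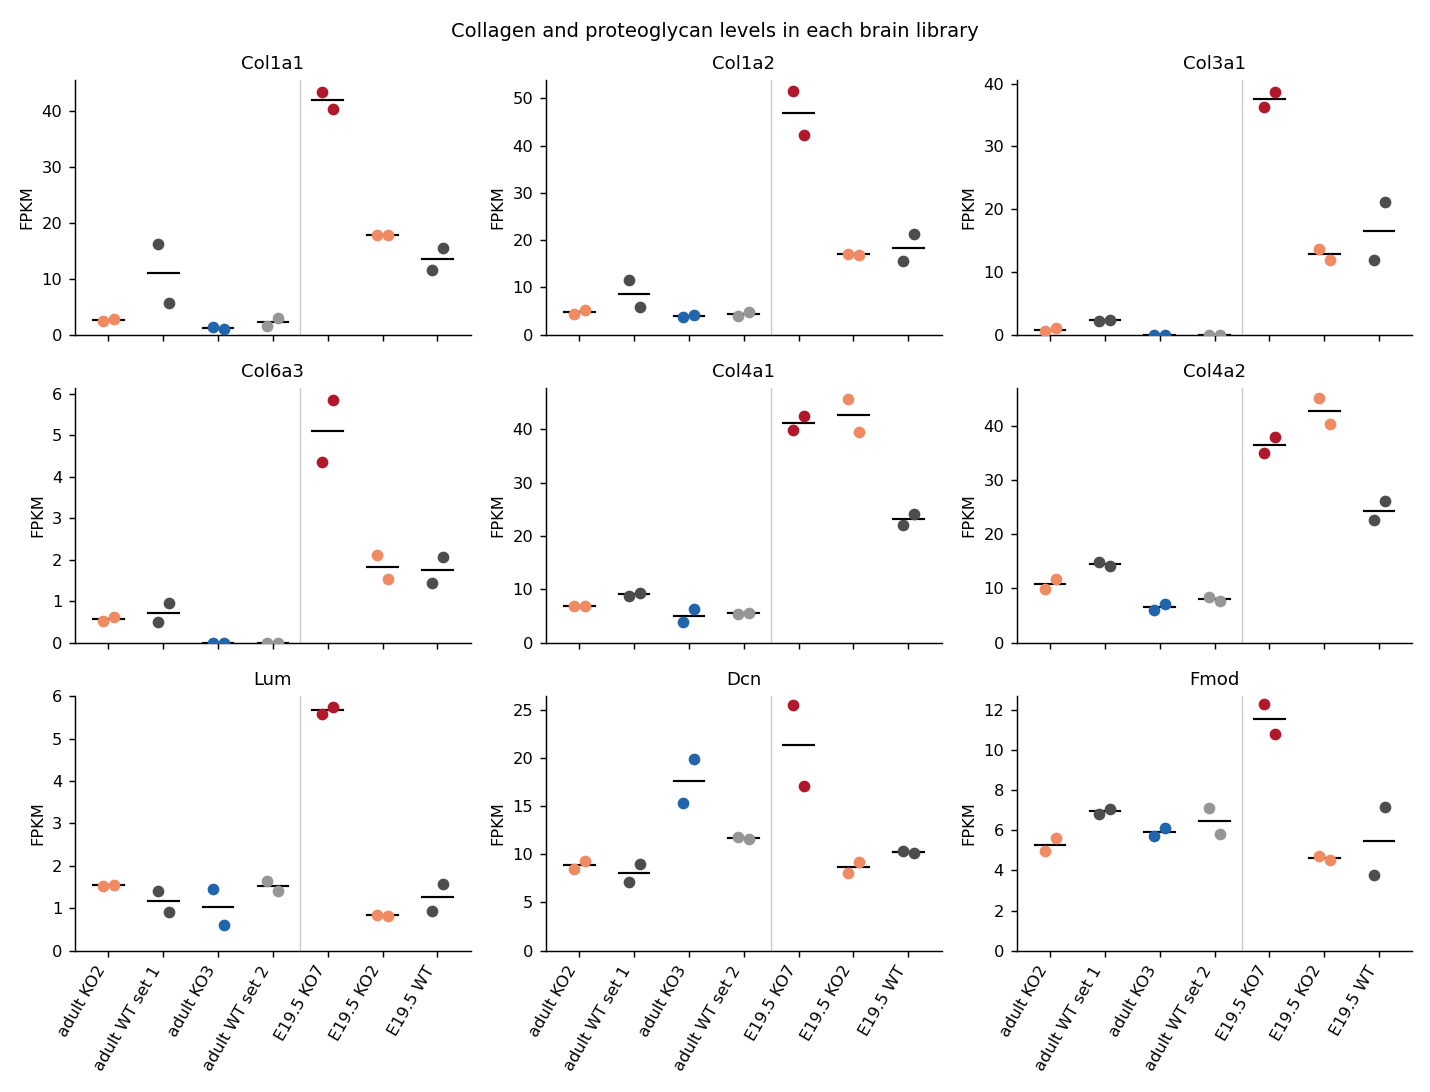
FPKM of 9 genes in each library, by group; points are libraries and bars group means (n = 2), with adult groups left of the divider and each panel on its own axis from 0. For Lum the KO7 libraries sit at 5.58 and 5.76 FPKM and the others at or below 1.65, while Col4a1 is at 39.5 to 45.7 FPKM in both embryonic knockouts, against 22.1 and 24.1 in E19.5 wild type.

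Of the enzymes that fold, modify and cross-link collagen, 9 of 29 tested passed as higher, beside the 3.02% of all genes, and none as lower; 18 of 29 lay above 0 (list median 0.27). Serpinh1, the collagen chaperone HSP47, read 88.5 and 75.5 FPKM in KO7 and 22.9 and 27.8 in wild type (log2 change 1.66 ± 0.19, adjusted p = 0.00149). Lox, the cross-linking lysyl oxidase, read 6.01 and 7.08 in KO7 and 2.14 and 2.80 in wild type (log2 change 1.13 ± 0.13, adjusted p = 0.00155). Crtap, a subunit of the prolyl 3-hydroxylase complex, and the lysyl oxidase relative Loxl2 rose by 1.0 and 0.94 (adjusted p = 0.00301 and 0.00512). Among other fibroblast matrix genes 8 of 25 rose and none fell (median 0.50). The smallest p-values were those of Postn (1.07), Fbln1 (1.25), Mfap5 (0.87) and Efemp2 (0.77), which encode periostin, a fibulin, a microfibril protein and an elastic fibre protein. Of 16 basement membrane partners 2 rose (Nid2, 1.01, and Lamb2, 0.68; median 0.40). Of 8 collagen receptors 1 rose, the uptake receptor Mrc2 (0.80; median 0.23). Of 14 genes of TGF-beta ligands, receptors and targets, the matrix target Tgfbi rose (0.85) and the pathway repressor Skil fell (-0.68; median 0.29).

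Markers of matrix-making and vascular cells were also higher in the KO7 libraries. Of 23 markers of meningeal and perivascular fibroblasts, 8 rose and none fell (median 0.64), with Foxd1 at 3.16 and 3.32 FPKM in KO7 and 1.14 and 1.12 in wild type, Foxc2 at 3.56 and 3.28 in KO7 and 0.993 and 1.79 in wild type, and Tbx15 at 1.13 and 1.21 in KO7 and 0.504 and 0.428 in wild type. Fbln1 stands on this list and the last. The summed marker level was 859 and 499 FPKM in KO7 and 326 and 448 in wild type, of which Ptgds alone gave 670.3 and 347 in KO7 and 236 and 340.1 in wild type. Of 12 endothelial markers 5 rose (summed level 173 and 156 in KO7, 91.3 and 98.0 in wild type), and of 11 pericyte and smooth muscle markers 4 rose (125 and 106 in KO7, 55.0 and 64.3 in wild type), among them Vtn and Acta2. Erythroid genes summed to 2641 and 2478 in KO7 and 95.0 and 519.5 in wild type, and 2 of 5 rose. No marker passed among 8 of bone and cartilage (summed level 4.58 and 4.87 in KO7, 3.47 and 3.22 in wild type; Bglap 0.147 and 0.753 in KO7, 0.754 and 0 in wild type), 3 of skeletal muscle (15.1 and 15.8 in KO7, 7.11 and 6.93 in wild type), 3 of skin (19.2 and 14.7 in KO7, 14.3 and 15.0 in wild type), 8 of choroid plexus and 5 of neurons. The part of these cell types in the collagen result was not tested.

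The KO7 count moved with single libraries. It was 1 without E19.5 wild-type replicate 1, 2 without KO7 replicate 1, 5 without KO7 replicate 2, 7 without wild-type replicate 2, and 2 where the adult wild-type sets were pooled in the fit, while Lum passed in all 26 alternatives tried.

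E19.5 KO2 brains differed from E19.5 wild type in type IV collagen. Col4a1 and Col4a2 rose, 2 of 37 genes (5.41%), against 0.88% of all genes tested, and none fell, against 0.398%. Col4a1 read 45.7 and 39.5 FPKM in KO2 and 22.1 and 24.1 in wild type (log2 change 0.85 ± 0.17, adjusted p = 0.0361). Col4a2 read 45.1 and 40.4 in KO2 and 22.5 and 26.1 in wild type (log2 change 0.79 ± 0.13, adjusted p = 0.0187). KO7 and KO2 were set against the same 2 wild-type libraries, so the type IV rises in both are not independent. At an unadjusted p under 0.05 there were 6 of the 37 (2305 of all genes), and the median change was 0.16, beside -0.0057 for all genes. Type I and III collagens did not pass: the log2 change was 0.39 for Col1a1, -0.087 for Col1a2 and -0.29 for Col3a1. The proteoglycans ranged between Ogn (2.44 and 1.96 FPKM in KO2, 3.83 and 4.38 in wild type, log2 change -0.67 ± 0.22, adjusted p = 0.165) and Prelp (5.38 and 3.33 in KO2, 2.19 and 2.36 in wild type, log2 change 0.68 ± 0.23, adjusted p = 0.182), and none passed. Lum, Dcn, Fmod and Bgn gave -0.29, -0.22, -0.15 and 0.10.

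The collagen enzymes (0 of 29), receptors (0 of 8) and basement membrane partners (0 of 16) held no gene that passed in this comparison. Of 25 other fibroblast matrix genes, Ctgf rose (13.4 and 18.7 FPKM in KO2, 5.12 and 4.35 in wild type, log2 change 1.56 ± 0.19, adjusted p = 0.00568) and Tnc, encoding tenascin C, fell (log2 change -0.71 ± 0.15, adjusted p = 0.0491). Meningeal fibroblast markers summed to 457 and 478 FPKM in KO2 and 326 and 448 in wild type, with 1 of 23 lower (Slc22a6, -1.09) and a median of -0.068. Ptgds alone gave 360 and 370 of these sums in KO2 and 236 and 340 in wild type. Endothelial markers summed to 136 and 129 in KO2 and 91.3 and 98.0 in wild type, with 1 of 12 higher (Ly6c1, 1.85), and pericyte and smooth muscle markers to 77.1 and 71.0 in KO2 and 55.0 and 64.3 in wild type, with none passing. Ly6c1 itself gave 24.6 and 24.6 of the endothelial sum in KO2 and 5.75 and 6.50 in wild type. Of 3 tested skeletal muscle markers none passed. The part of these cells in the type IV result was not tested. The count was 0 without either KO2 library, without wild-type replicate 1 or with the adult wild-type sets pooled, and 1 without the 3 libraries that stand apart. It was also 1 without wild-type replicate 2, either KO7 library, or any 1 of the adult KO2, set 1 and set 2 libraries.

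**Figure D3:**
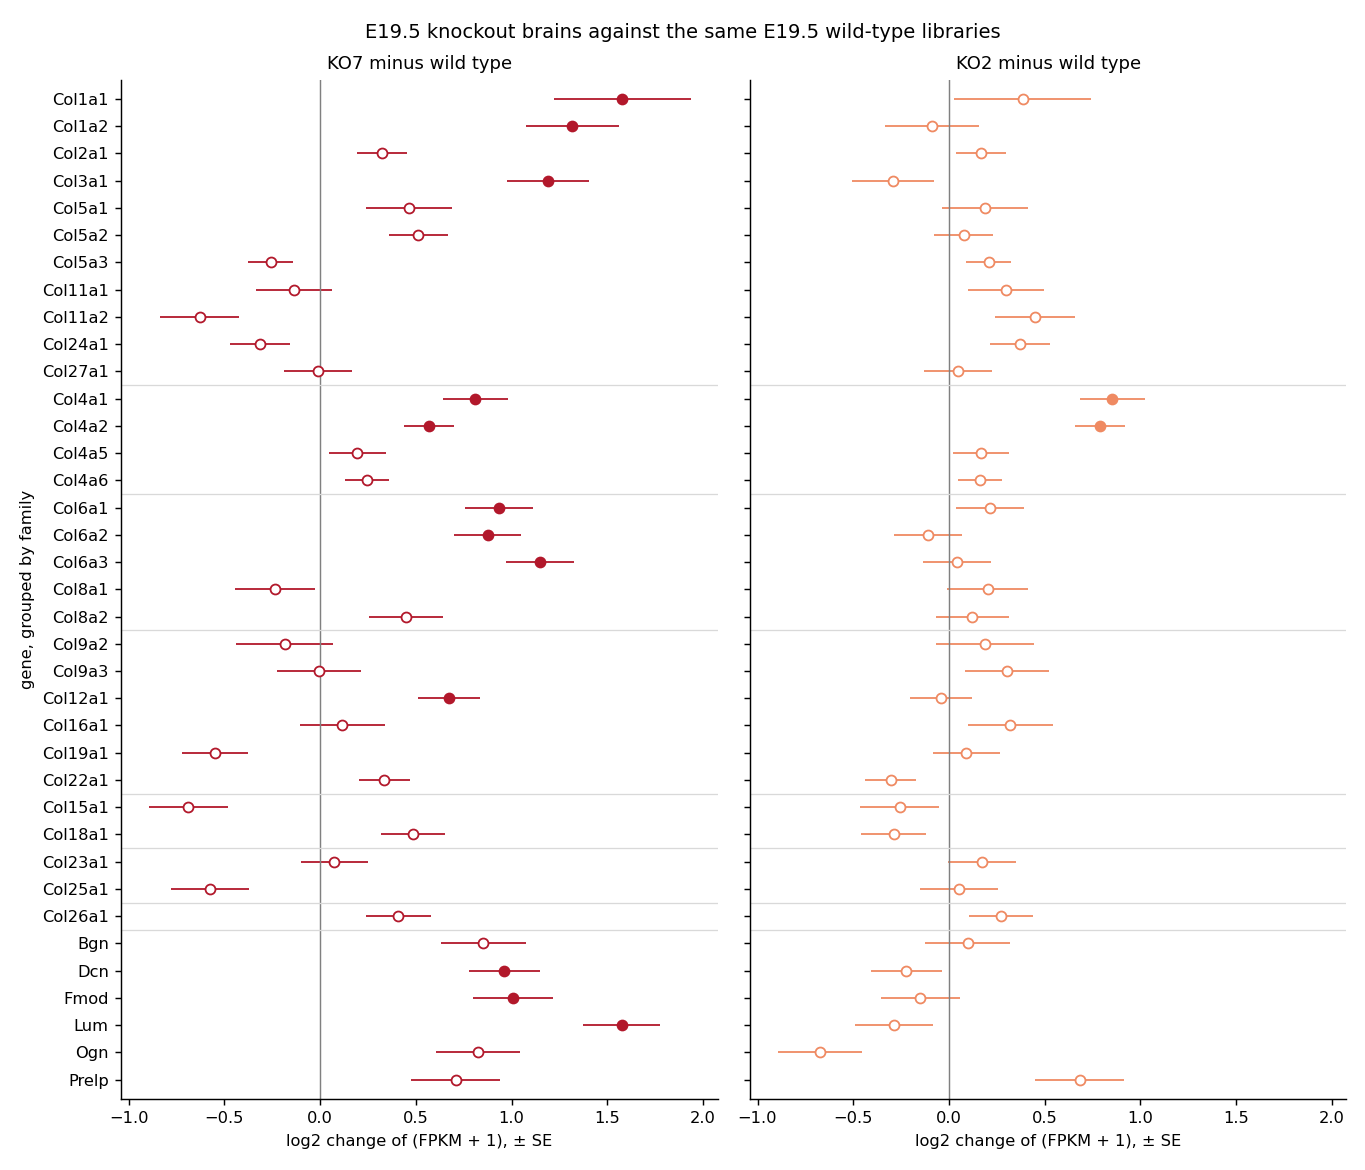
Log2 change of (FPKM + 1) ± SE for the 37 genes, grouped by family, in E19.5 KO7 (left) and E19.5 KO2 (right) against the same 2 wild-type libraries; filled points passed the threshold. Filled points are 12 at left, up to 1.58 for Col1a1 and Lum, and 2 at right, Col4a1 at 0.85 and Col4a2 at 0.79.

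E19.5 KO7 was also set directly against E19.5 KO2. Here 12 of 37 genes were higher in KO7, against 3.23% of all genes, and 3 were lower, against 2.4%. One of the 3, Col5a3, entered the fit through the KO2 libraries alone, so the level rule favours a lower value for it in KO7 and its count is no support. Of the 12, 9 were also among the 12 that rose over wild type, and the others were Col18a1, Col22a1 and Ogn. Both comparisons use the same 2 KO7 libraries, so the 9 shared genes are not independent results. Lum differed most (log2 change 1.86 ± 0.20, adjusted p = 0.00078), followed by Ogn, which read 8.68 and 7.44 FPKM in KO7 and 2.44 and 1.96 in KO2 (log2 change 1.5 ± 0.22, adjusted p = 0.0038). Col3a1 (log2 change 1.48 ± 0.21, adjusted p = 0.00366) and Col1a2 (log2 change 1.40 ± 0.24, adjusted p = 0.00899) came next. Dcn (log2 change 1.19), Fmod (1.16), Col6a3 (1.11), Col6a2 (0.98), Col6a1 (0.72) and Col12a1 (0.71) were also higher in KO7, with adjusted p-values of 0.00536, 0.0107, 0.00601, 0.00995, 0.0398 and 0.0293. For each of these 10 genes the values given above show both KO7 libraries over both KO2 libraries. Col18a1 read 5.91 and 7.68 in KO7 and 3.27 and 3.81 in KO2 (log2 change 0.77 ± 0.17, adjusted p = 0.0238). Col22a1, a collagen of tissue junctions, read 1.55 and 1.68 in KO7 and 0.786 and 0.575 in KO2 (log2 change 0.64 ± 0.13, adjusted p = 0.0203). Besides KO7 it reached 1 FPKM only in E19.5 wild-type replicate 2 (1.32 FPKM). The level rule thus favours a higher value for Col22a1 in KO7, and its count among the 12 is no support. Col1a1 was higher by 1.19 without passing (adjusted p = 0.0766).

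The 3 genes lower in KO7 than in KO2 were fibrillar collagens outside types I and III. Col11a2 read 2.31 and 2.73 FPKM in KO7 and 6.59 and 6.26 in KO2 (log2 change -1.08 ± 0.21, adjusted p = 0.0144). Col24a1 read 0.223 and 0.313 in KO7 and 0.917 and 1.17 in KO2 (log2 change -0.69 ± 0.16, adjusted p = 0.0293). Col5a3 read 0.520 and 0.527 in KO7 and 1.11 and 1.10 in KO2 (log2 change -0.47 ± 0.12, adjusted p = 0.0392). Col4a1 differed by less than its error (log2 change -0.044 ± 0.17, adjusted p = 0.918), and Col4a2 did not pass (log2 change -0.22 ± 0.13, adjusted p = 0.355). Of the collagen enzymes 7 of 29 were higher in KO7, with the smallest p-values for Lox, Serpinh1, Crtap and Pcolce, as were the receptors Ddr2 and Mrc2 and the basement membrane partners Nid2 and Lama4. Of 25 other fibroblast matrix genes 6 were higher and 2 lower. Of 23 meningeal fibroblast markers 10 were higher in KO7 and none lower, of 11 pericyte and smooth muscle markers 4 were higher, and of 12 endothelial markers 2 were higher and 1 lower. Their part in the collagen differences was not tested. The count of 15 fell to 4 without KO7 replicate 1 or either KO2 library, to 5 without KO7 replicate 2, to 6 without the 3 libraries that stand apart, and to 4 with the adult wild-type sets pooled.

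In adult KO2 against adult wild-type set 1, none of the 37 genes passed in limma, against 0.154% of all genes, and 7 of the 37 had an unadjusted p under 0.05 (1051 of all 14322 genes). The median change was -0.11, beside 0.043 for all genes. The genes nearest to passing were Col1a1, with 2.38 and 2.78 FPKM in KO2 and 16.3 and 5.59 in set 1 (log2 change -1.58 ± 0.36, adjusted p = 0.184), and Col3a1, with 0.629 and 1.01 in KO2 and 2.25 and 2.38 in set 1 (log2 change -0.87 ± 0.21, adjusted p = 0.232). Both KO2 libraries lay below both set 1 libraries for these genes. Set 1 replicate 1 was the higher of its pair for Col1a1, and bone and cartilage markers summed to 16.2 and 10.9 FPKM in KO2 and 25.4 and 10.6 in set 1, with Bglap at 10.51 and 0.750 in set 1. The part of bone in this difference was not tested. Col1a2 read 4.39 and 5.26 in KO2 and 11.6 and 5.84 in set 1 (log2 change -0.67 ± 0.24, adjusted p = 0.546). For type IV the embryonic direction was not seen: Col4a1 read 6.88 and 6.93 in KO2 and 8.82 and 9.33 in set 1 (log2 change -0.35), and Col4a2 read 9.83 and 11.8 in KO2 and 14.8 and 14.2 in set 1 (-0.40), both without passing. The 6 proteoglycans lay between -0.34 (Fmod) and 0.25 (Lum). No gene passed among the collagen enzymes, receptors, basement membrane partners, other matrix genes, TGF-beta genes or any marker list. Without set 1 replicate 2 the count was 1.

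In adult KO3 against set 2, Col25a1, a neuronal transmembrane collagen, fell: 2.05 and 1.45 FPKM in KO3, against 3.45 and 3.09 in set 2 (log2 change -0.64 ± 0.20, adjusted p = 0.0463). It was the only one of the 37, 2.70%, in a comparison in which 22.1% of all genes passed, 13.9% higher and 8.2% lower. The 9 genes listed at 0 in these 4 libraries could not show a change. Dcn read 15.3 and 19.9 in KO3 and 11.8 and 11.5 in set 2 without passing (log2 change 0.55 ± 0.19, adjusted p = 0.0556). Among the basement membrane partners 4 of 16 fell (Lamc1, Agrn, Lama5 and Lama2), whereas Col4a1 and Col4a2 gave -0.13 and -0.26. Mgp, a calcification inhibitor on both the matrix and the meningeal list, rose by 1.83, and the 3 tested skin markers rose (summed level 9.53 and 18.1 FPKM in KO3, 6.26 and 4.84 in set 2). Of 5 neuron markers Stmn2 (0.57) and Rbfox3 (0.65) rose and Syt1 fell (-0.77). Of 5 erythroid markers 2 rose, Hba-a1 and Hbb-b1 (summed level 965 and 1008 FPKM in KO3, 117 and 60.8 in set 2). The part of these cells in the Col25a1 fall was not tested. Without KO3 replicate 1 the count of collagens and proteoglycans that passed was 8, without any 1 of the other 3 libraries of this comparison it was 0, and it was also 0 without any 1 of the E19.5 KO2 and E19.5 wild-type libraries, without the 3 libraries that stand apart, or with only these 2 groups in the fit.

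Between E19.5 and the adult, the type IV collagens and multiplexins of wild-type brain fell, and among the fibrillar collagens type III fell most. In adult set 1 against E19.5 wild type, 18 of 37 genes were lower in the adult (48.6%, against 34.1% of all genes) and 5 were higher (13.5%, against 21.9%). The median change of the 37 was -0.46, beside -0.15 for all genes. Median-of-ratios scaling moved the median of all genes by 0.12 here. All 4 type IV genes and both multiplexins fell, as did 4 of 11 fibrillar and 3 of 6 FACIT collagens. Of the 6 proteoglycans 2 fell, 1 rose and 3 did not pass. Col2a1, Col4a6, Col6a3 and Col22a1 reached 1 FPKM only in E19.5 libraries. The level rule took them in through that stage, so their counts among the 18 are no support. Col4a5 reached 1 FPKM in the adult only in set 1 replicate 2 (1.09 FPKM), short of the 2 libraries the rule asks. It too came in through E19.5, so its count is no support either. Col24a1 came in through the adult, since at E19.5 it reached 1 FPKM only in KO2 replicate 2 (1.17 FPKM). Its count among the 5 is no support.

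The largest fall among the 37 was that of Col3a1, with 2.25 and 2.38 FPKM in set 1 and 11.8 and 21.2 in E19.5 wild type (log2 change -2.35 ± 0.21, adjusted p = 4.79e-06). Col26a1, an EMI-domain collagen, read 3.08 and 2.93 in set 1 and 10.8 and 15.0 in E19.5 wild type (log2 change -1.78 ± 0.17, adjusted p = 6.62e-06). Col2a1 read 0.397 and 0.366 in set 1 and 2.35 and 3.17 in E19.5 wild type (log2 change -1.44 ± 0.13, adjusted p = 5.03e-06). No adult library reached the embryonic wild-type range for these 3 genes. Col5a2, next to Col3a1 on chromosome 1, read 1.62 and 1.70 in set 1 and 4.90 and 4.65 in E19.5 wild type (log2 change -1.12 ± 0.15, adjusted p = 9.64e-05). The type IX chain Col9a2 read 3.21 and 4.54 in set 1 and 10.04 and 13.5 in E19.5 wild type (log2 change -1.39 ± 0.25, adjusted p = 0.000741), and its partner Col9a3 fell too (log2 change -0.91, adjusted p = 0.00442). Col22a1 read 0.434 and 0.261 in set 1 and 0.850 and 1.32 in E19.5 wild type (log2 change -0.62 ± 0.13, adjusted p = 0.00209).

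Among basement membrane collagens, Col4a1 read 8.82 and 9.33 FPKM in set 1 and 22.1 and 24.1 in E19.5 wild type (log2 change -1.26 ± 0.17, adjusted p = 8.34e-05). Col4a2 read 14.8 and 14.2 in set 1 and 22.5 and 26.1 in E19.5 wild type (log2 change -0.70 ± 0.13, adjusted p = 0.00078). The X-linked Col4a5 read 0.867 and 1.09 in set 1 and 2.16 and 3.07 in E19.5 wild type (log2 change -0.86 ± 0.15, adjusted p = 0.000454), and Col4a6 gave a log2 change of -0.53 (adjusted p = 0.00229). The chains of this family all fell, by different amounts, Col4a1 by more than Col4a2. The level rule favours the falls of Col4a5 and Col4a6. Col18a1 read 1.46 and 2.11 in set 1 and 4.09 and 5.02 in E19.5 wild type (log2 change -1.0 ± 0.17, adjusted p = 0.000441), and Col15a1 gave -0.92 (adjusted p = 0.00279). Col1a2 read 11.6 and 5.84 in set 1 and 15.5 and 21.2 in E19.5 wild type and fell (log2 change -1.05 ± 0.24, adjusted p = 0.00355). Col1a1 did not pass (log2 change -0.43 ± 0.36, adjusted p = 0.329), and set 1 replicate 1 lay above both E19.5 wild-type libraries, at 16.3 FPKM. Smaller falls passed for Bgn, Ogn, Col6a3 and Col23a1, between -0.76 (Ogn) and -0.59 (Col23a1).

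The largest rise among the 37 was that of Col6a1, with 27.5 and 24.0 FPKM in set 1 and 6.25 and 8.48 in E19.5 wild type (log2 change 1.69 ± 0.18, adjusted p = 1.45e-05), although its trimer partner Col6a2 did not pass (log2 change -0.16 ± 0.18, adjusted p = 0.457) and Col6a3 fell (log2 change -0.67 ± 0.18, adjusted p = 0.00719). Prelp read 6.45 and 7.23 in set 1 and 2.19 and 2.36 in E19.5 wild type (log2 change 1.26 ± 0.23, adjusted p = 0.000801). Both adult wild-type sets lay above every E19.5 library for Prelp. Col24a1 read 1.73 and 1.41 in set 1 and 0.505 and 0.649 in E19.5 wild type (log2 change 0.70 ± 0.16, adjusted p = 0.0026). Col19a1 read 3.97 and 2.25 in set 1 and 1.75 and 1.53 in E19.5 wild type (log2 change 0.61 ± 0.17, adjusted p = 0.011), and Col27a1 1.54 and 1.79 in set 1 and 0.770 and 1.08 in E19.5 wild type (log2 change 0.47 ± 0.18, adjusted p = 0.0409). Col5a1, Col5a3, Col8a1, Col8a2, Col11a1, Col11a2, Col12a1, Col16a1, Col25a1, Dcn, Fmod and Lum did not pass.

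Of the collagen enzymes, 15 of 29 were lower and 4 higher in the adult (median -0.46), with Lox at 0.375 and 0.373 FPKM in set 1 and 2.14 and 2.80 in E19.5 wild type, and Serpinh1 at 11.4 and 15.2 in set 1 and 22.9 and 27.8 in E19.5 wild type. Of 25 other fibroblast matrix genes 13 were lower and 4 higher, and of 16 basement membrane partners 8 were lower and 2 higher. Meningeal fibroblast markers moved both ways, 8 lower and 3 higher of 23 (median -0.14). Of 12 endothelial markers 4 were higher and 2 lower (median 0.095; summed level 133 and 117 FPKM in set 1, 91.3 and 98.0 in E19.5 wild type), and of 11 pericyte and smooth muscle markers 3 were higher and 2 lower (83.6 and 86.3 in set 1, 55.0 and 64.3 in E19.5 wild type). Ly6c1 alone gave 51.0 and 36.6 of the endothelial sum in set 1 and 5.75 and 6.50 in E19.5 wild type. Vtn gave 41.4 and 43.9 of the pericyte and smooth muscle sum in set 1 and 18.8 and 24.7 in E19.5 wild type. The part of these cells in the type IV falls was not tested. Of 8 bone and cartilage markers 5 were higher in set 1: Dmp1, Hapln1, Bglap, Runx2 and Bglap2. The list summed to 25.4 and 10.6 FPKM in set 1 and 3.47 and 3.22 in E19.5 wild type. Bglap read 10.51 and 0.750 in set 1. Dmp1 read 4.01 and 2.11 in set 1 and 2.63 and 2.41 in adult KO2, Hapln1 3.74 and 2.37 against 4.09 and 2.80, and Runx2 1.57 and 1.01 against 2.11 and 1.23. Col1a1 was 2.38 and 2.78 in adult KO2. The part of these markers in the Col1a1 values was not tested.

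Adult KO2 against E19.5 KO2 gave a like picture with no library in common: 20 of 37 genes were lower (54.1%, against 28.6% of all genes) and 2 higher (5.41%, against 20.7%). Of the 20 lower genes, 17 were among the 18 of wild type, and the 2 higher genes, Col6a1 and Prelp, were among the 5. The overlap of the 2 comparisons over all genes was not counted, and both use the same estimate of each gene's spread. Col3a1 read 0.629 and 1.01 FPKM in adult KO2 and 13.6 and 11.98 in E19.5 KO2 (log2 change -2.93 ± 0.21, adjusted p = 1.42e-06). Col26a1 read 1.62 and 1.85 in adult KO2 and 15.0 and 16.1 in E19.5 KO2 (log2 change -2.60 ± 0.17, adjusted p = 6.93e-07). Col4a1 read 6.88 and 6.93 in adult KO2 and 45.7 and 39.5 in E19.5 KO2 (log2 change -2.46 ± 0.17, adjusted p = 1.03e-06). The other genes among the 10 smallest p-values were Col4a2 (log2 change -1.89), Col2a1 (-1.37), Col5a2 (-1.48), Col4a5 (-1.22), Col9a3 (-1.48), Col1a1 (-2.39) and Col1a2 (-1.63), all lower in the adult. Col4a2 read 9.83 and 11.8 in adult KO2 and 45.1 and 40.4 in E19.5 KO2 (log2 change -1.89 ± 0.13, adjusted p = 1.05e-06). Col5a2 read 1.41 and 0.968 in adult KO2 and 4.77 and 5.43 in E19.5 KO2, Col4a5 0.713 and 0.733 in adult KO2 and 3.45 and 2.65 in E19.5 KO2, and Col2a1 0.568 and 0.677 in adult KO2 and 3.47 and 2.95 in E19.5 KO2. Col9a3 read 7.68 and 4.40 in adult KO2 and 19.49 and 16.9 in E19.5 KO2. None of these adult values reached an E19.5 value. Col1a1, which did not pass in wild type, fell in KO2 (2.38 and 2.78 in the adult, 17.7 and 17.8 at E19.5, log2 change -2.39 ± 0.36, adjusted p = 0.000238), as did Col11a1 (-0.84) and Col5a3 (-0.31). Col5a3 entered the fit through the E19.5 KO2 libraries alone, so the level rule favours its lower adult value and its count among the 20 is no support. Col2a1, Col4a6, Col6a3 and Col22a1 reached 1 FPKM only in E19.5 libraries, so their counts among the 20 are no support either. The same holds for Col4a5, which met the level rule through E19.5. Col6a1 read 21.4 and 17.0 in adult KO2 and 8.59 and 8.65 in E19.5 KO2 (log2 change 1.06 ± 0.18, adjusted p = 0.000535), and Prelp read 7.60 and 7.47 in adult KO2 and 5.38 and 3.33 in E19.5 KO2 (log2 change 0.70 ± 0.23, adjusted p = 0.0274). Collagen enzymes (14 of 29 lower, 4 higher), other matrix genes (17 of 25 lower, 2 higher) and basement membrane partners (9 of 16 lower, none higher) also moved. Endothelial markers (7 of 12 lower, 3 higher) and skeletal muscle markers (3 of 3 lower; summed level 10.2 and 9.35 FPKM in adult KO2, 45.7 and 13.4 in E19.5 KO2) moved beside them, and their part was not tested.

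**Figure D4:**
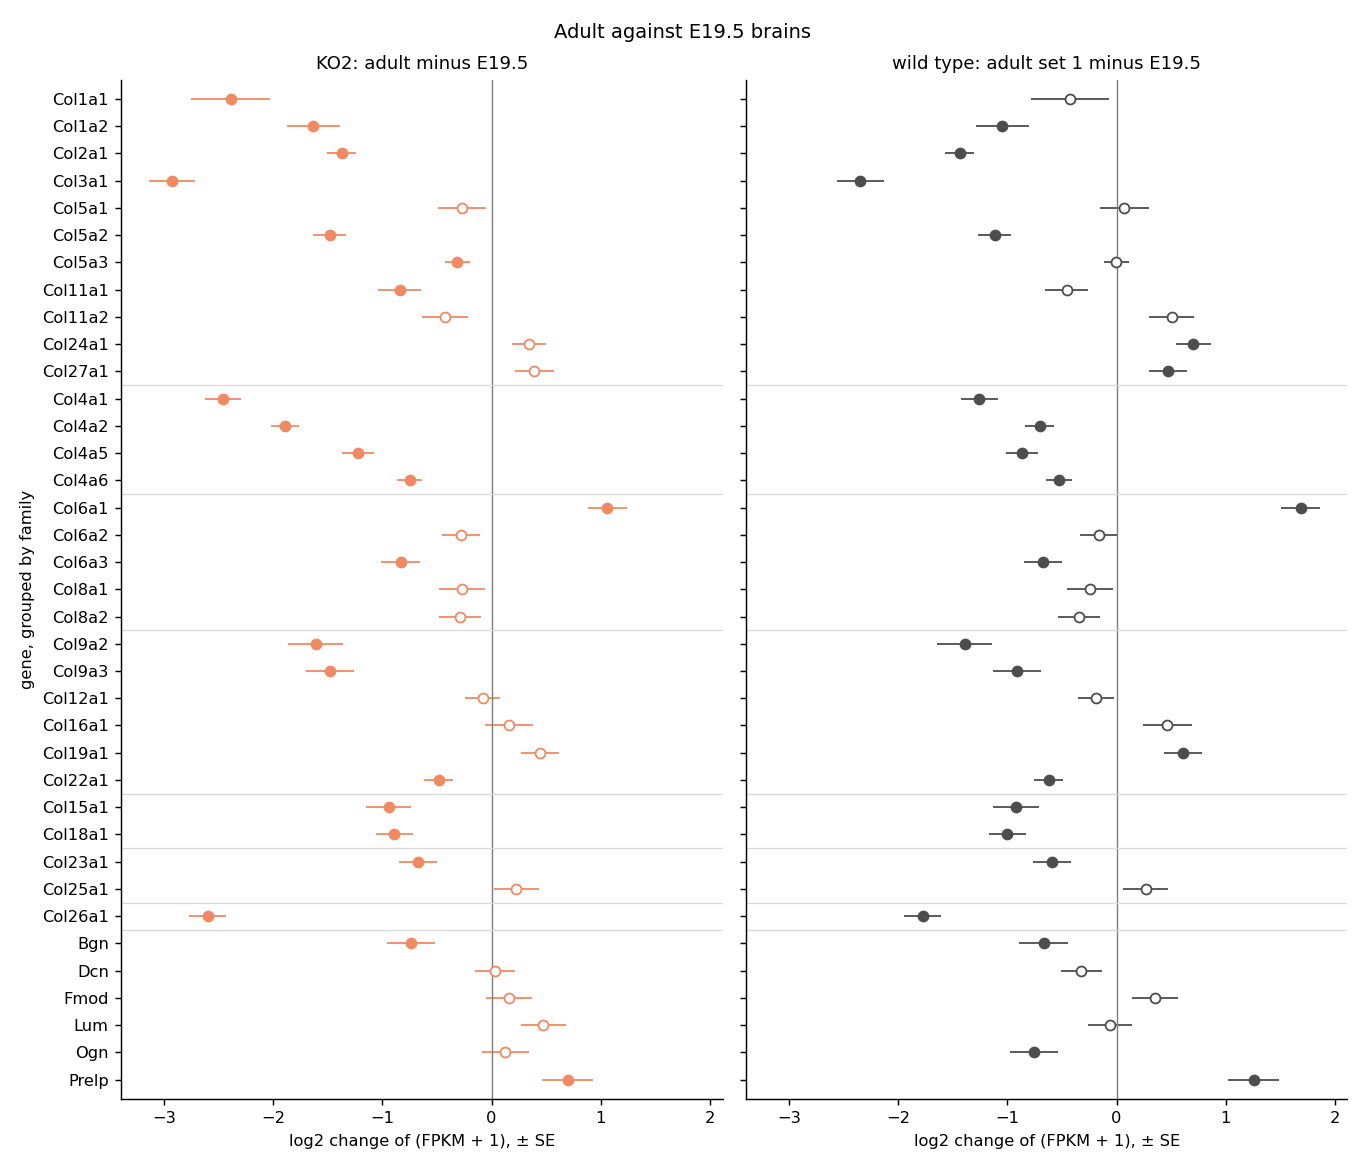
Log2 change of (FPKM + 1) ± SE of the 37 genes in the adult against E19.5, in KO2 (left) and in wild type set 1 (right); filled points passed the threshold. Col3a1 has the lowest value in both panels, -2.93 and -2.35, and Col6a1 the highest, 1.06 and 1.69.

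Whether the KO2 effect differed between stages was tested as an interaction. None of the 37 genes passed in limma (0.0628% of all genes did), and 7 had an unadjusted p under 0.05 (2118 of all genes). The type IV pair came nearest: the adult KO2 effect minus the E19.5 KO2 effect had a log2 change -1.19 ± 0.18, adjusted p = 0.0542 for Col4a2, and a log2 change -1.20 ± 0.24, adjusted p = 0.0714 for Col4a1. Col1a1 followed (log2 change -1.96 ± 0.51, adjusted p = 0.136), a contrast that includes set 1 replicate 1 at 16.3 FPKM. Col4a2 passed in 10 of 26 alternatives, Col4a1 in 5 and Col1a1 in 1.

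The 2 adult wild-type sets differed from each other, which bears on every adult value. In set 2 against set 1, 20 of 37 genes were lower (54.1%, against 14% of all genes) and 1 higher (2.70%, against 6.84%). All 9 genes listed at 0 in set 2 are among the 20. Of genes with a value in the 4 adult KO3 and set 2 libraries, the smallest maximum over the 4 was 1.02 FPKM. Both set 1 libraries lay above that level for Col3a1 (2.25 and 2.38 FPKM), Col15a1 (1.80 and 2.39) and Col24a1 (1.73 and 1.41). The other 6 had a set 1 mean below it, among them Col4a5 (0.867 and 1.09), Col5a3 (0.703 and 0.952) and Col6a3 (0.503 and 0.948), and for these the removal of low values cannot be told apart from a lower level. The other 11 had values in both sets. Col4a2 read 8.48 and 7.62 FPKM in set 2 and 14.8 and 14.2 in set 1 (log2 change -0.78 ± 0.13, adjusted p = 0.0023). Col26a1 read 1.03 and 1.28 in set 2 and 3.08 and 2.93 in set 1 (log2 change -0.90 ± 0.17, adjusted p = 0.00419). Col6a1 read 15.9 and 11.5 in set 2 and 27.5 and 24.0 in set 1 (log2 change -0.88 ± 0.18, adjusted p = 0.00643). Col1a1 read 1.46 and 2.93 in set 2 and 16.3 and 5.59 in set 1 (log2 change -1.78 ± 0.36, adjusted p = 0.00596). Meningeal fibroblast markers were lower for 5 of 23 and higher for 1. Col18a1 was the gene higher in set 2, with 4.90 and 4.39 in set 2 and 1.46 and 2.11 in set 1 (log2 change 1.03 ± 0.17, adjusted p = 0.00213). The count was 9 without set 2 replicate 2, 13 without set 2 replicate 1 and 11 without either set 1 library or without the 3 libraries that stand apart.

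Chains that assemble into 1 molecule were compared within each library, since FPKM are per length. The ratio of Col6a1 to Col6a2 was 2.75 to 4.46 over the 8 adult libraries and 0.947 to 1.30 over the 6 E19.5 libraries, so that the stages did not overlap. Col4a1 to Col4a2 was 0.587 to 0.898 in the adult and 0.924 to 1.14 at E19.5, again without overlap. Col1a1 to Col1a2 was 0.245 to 1.41 in the adult and 0.728 to 1.05 at E19.5, with overlap. At E19.5 the Col4a1 to Col4a2 ratio was 1.14 and 1.12 in KO7, 1.01 and 0.978 in KO2 and 0.978 and 0.924 in wild type.

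**Figure D5:**
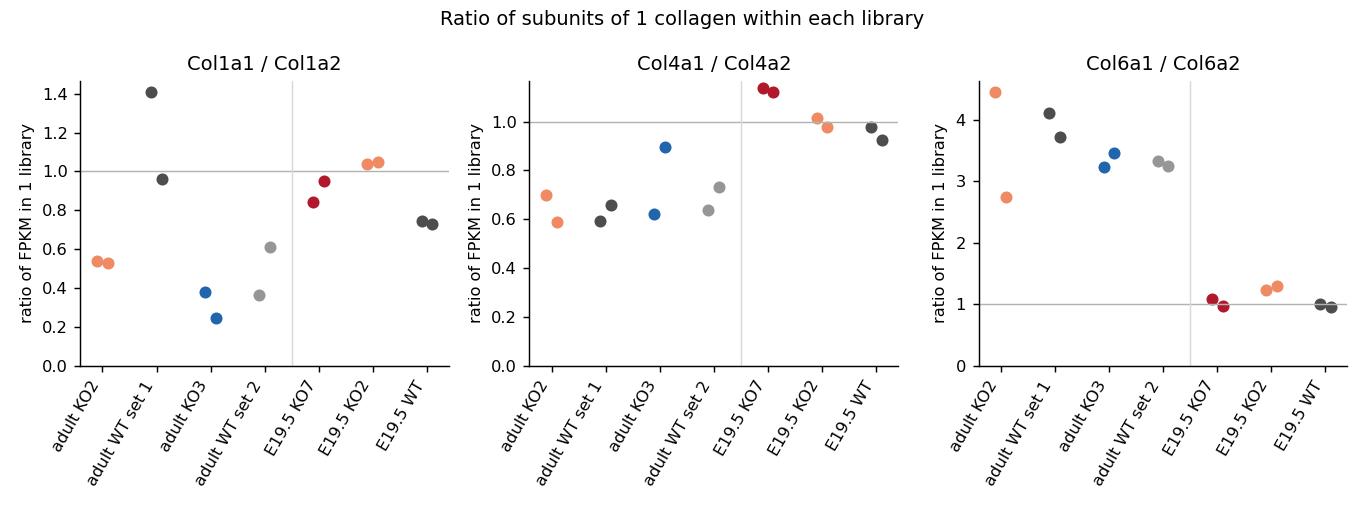
Ratio of FPKM between chains of 1 collagen in each library, by group, with adult groups left of the divider and E19.5 groups right of it; the horizontal line marks equal FPKM. The Col6a1 to Col6a2 ratio lies at 2.75 to 4.46 in all 8 adult libraries and at 0.947 to 1.30 in all 6 E19.5 ones.

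Several of the 37 genes neighbour each other among protein-coding genes on GRCm38.p6: Col4a1 with Col4a2 on chromosome 8, Dcn with Lum and Col6a2 with Col6a1 on chromosome 10, Col3a1 with Col5a2 and Prelp with Fmod on chromosome 1, and Col4a6 with Col4a5 on the X chromosome. In E19.5 KO7 against wild type both genes passed as higher in the first 3 of these pairs, and 1 gene in the Col3a1 and Prelp pairs. Col9a3 overlaps Tcfl5 and Col27a1 overlaps Mir455 in RefSeq, so reads could be shared there. Rows below the level rule were Aspn, Omd and 13 collagens (Col4a3, Col4a4, Col6a4, Col6a5, Col6a6, Col7a1, Col9a1, Col10a1, Col13a1, Col14a1, Col17a1, Col20a1 and Col28a1), and apart from Col20a1 no library reached 1 FPKM of any of them. Aspn and Omd, which lie beside Ogn on chromosome 13, read 0.413 and 0.267 FPKM and 0.298 and 0.375 FPKM in KO7, against 0.224 and 0.316 FPKM and 0.132 and 0.366 FPKM in E19.5 wild type.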

How the data were processed

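Poly(A) RNA of 14 mouse brain libraries (7 groups of 2) was sequenced, and the FPKM values of 23375 genes were deposited by the authors as 1 table; 2 leftover rows naming no gene were dropped. Per the submitters' processing notes, build mm9, CASAVA, TopHat2 2.1.1 and Cufflinks 2.2.1 were used, with no role given; strand use is not given in the sources used here. Depth is unknown: low FPKM values did not resolve into whole reads (at most 4.16% of low genes shared 1 ratio in any of 45 library pairs), so no counting intervals are given. Per the file headers, 10 of 14 columns came with a leftover FPKM word, and the other 4 are those with low values set to 0.

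Groups follow the labels. The limma test (limma 3.58.1, R 4.3.3, two-sided, intensity trend) was fitted on log2(FPKM + 1) of 14322 genes with at least 1 FPKM in 2 libraries, with 7 group means and 7 residual degrees of freedom, and adjusted by Benjamini-Hochberg over all tested genes at 0.05. It was also run on simulated data with known changes, drawn as independent normal values without removal of low values. Those data cannot show how the fit handles the libraries with low values removed or those that stand apart. Genes named with values and tests were those past the threshold in a comparison (at most 10 with the smallest p per direction), the proteoglycans and Col1a1, Col1a2, Col3a1, Col4a1 and Col4a2; of other lists, up to 4 genes per comparison. Members and lists were chosen with earlier results of these data known. Alternatives changed the pseudocount, filter, scaling, trend, samples in the fit, wild-type sets, replicate block and single libraries. In a fit that leaves 1 library in a group, that library is assumed to vary like the other groups. For the 9 genes listed at 0 in all adult KO3 and set 2 libraries, those groups enter the fit with a spread of 0. This lowers the estimated spread of these genes, so their standard errors and p-values may be too small in every comparison.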

Additional observations from a re-analysis of the deposited data

How the results depend on the processing

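For 75 passed changes of the 37 genes, those of all comparisons but set 2 against set 1 (21 more, followed only as a count), 1914 alternative values were computed: 1693 also passed, 221 kept the direction without passing and 0 reversed. Lum passed in 26 of 26 alternatives in both KO7 comparisons. Pooling the adult wild-type sets gave 2 genes in E19.5 KO7 against wild type, 0 in E19.5 KO2 against wild type, 4 in KO7 against KO2 and 2 in adult KO3 against set 2. A pseudocount of 0.1 gave 1 gene in KO2 against wild type and 1 in the interaction of KO2 with stage. A pseudocount of 10 gave 0 in adult KO3, 2 in the interaction and 12 in set 2 against set 1. With no filter there were 0 in adult KO3 and 1 in the interaction. A filter of 5 FPKM, which leaves 22 of the 37 genes, gave 2 in adult KO3, 13 in set 1 against E19.5 wild type, 14 in adult against E19.5 KO2 and 13 in set 2 against set 1. Median-of-ratios scaling gave 1 in the interaction, and quantile scaling 1 in the interaction and 0 in adult KO3. With only the groups compared in the fit there were 0 in adult KO3 and 2 in the interaction, and with only the 10 libraries without low-value removal 2 in the interaction. Without the 3 libraries that stand apart there were 1 in KO2 against wild type, 6 in KO7 against KO2, 0 in adult KO3 and 11 in set 2 against set 1. The cause of these moves was not tested. The total of passed alternatives pools the changes between E19.5 and adult with those of the knockouts. Many alternatives that leave out a library take it from outside the comparison. Among the changes kept least often were Col5a3 in adult against E19.5 KO2, Col4a1 in E19.5 KO2 against wild type, Col12a1 in KO7 against wild type and Col25a1 in adult KO3.

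Leaving out 1 library at a time gave 1 to 15 genes in KO7 against wild type, 0 to 2 in KO2 against wild type, 4 to 17 in KO7 against KO2, 0 to 1 in adult KO2, 0 to 8 in adult KO3, 19 to 24 and 18 to 23 in the adult against E19.5 for wild type and KO2, 0 to 2 in the interaction and 9 to 22 in set 2 against set 1. Small changes that had not passed turned sign. In KO2 against wild type Bgn ran between -0.11 and 0.30 as 1 E19.5 wild-type library was dropped, Col1a2 between -0.30 and 0.13, Col3a1 between -0.69 and 0.10 and Fmod between -0.54 and 0.24; all 4 were lower without replicate 1. In KO7 against KO2 Col4a1 was 0.058 without KO2 replicate 1 or the 3 libraries that stand apart, 0.0011 without KO7 replicate 1 and -0.15 without KO2 replicate 2. Prelp was 0.30 without KO2 replicate 1, -0.19 without KO7 replicate 1 and -0.25 without KO2 replicate 2.

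Replicate numbers are shared between groups, but nothing says that they pair samples: the correlation of replicate differences ran between -0.288 and 0.233 over 8 pairs of groups. With the replicate number as a block the counts were 11 in KO7 against wild type, 2 in KO2 against wild type, 15 in KO7 against KO2, 0 in adult KO2, 1 in adult KO3, 25 in wild type and 23 in KO2 for the adult against E19.5, 0 in the interaction and 18 in set 2 against set 1. With 2 libraries a group, small changes are beyond these data, and depth per library is unknown.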

Other observations

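Genes near 2 collagens were looked at after their values were seen. In E19.5 KO7 against wild type Sgce and Kcnk9 passed, and Peg10, Casd1, Bet1 and Fam135b did not. Col1a2 lies on chromosome 6 between Bet1 and Casd1, near Sgce and Peg10 in the gene order of GRCm38.p6. Sgce, an imprinted sarcoglycan gene, read 37.8 and 31.7 FPKM in KO7 and 13.4 and 15.6 in E19.5 wild type (log2 change 1.21 ± 0.17, adjusted p = 0.00448). Peg10, an imprinted retrotransposon-derived gene, read 44.8 and 45.8 in KO7 and 21.1 and 24.1 in wild type without passing (log2 change 0.97 ± 0.42, adjusted p = 0.213). Casd1 (17.3 and 20.4 in KO7, 26.2 and 25.3 in wild type, log2 change -0.43 ± 0.16, adjusted p = 0.16) and Bet1 (7.05 and 6.70 in KO7, 7.59 and 5.72 in wild type, log2 change 0.051 ± 0.19, adjusted p = 0.904) did not pass.

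Col22a1, on chromosome 15, lies next to Kcnk9, a maternally expressed potassium channel gene, which read 0.0444 and 0.101 FPKM in KO7 and 16.3 and 20.3 in E19.5 wild type (log2 change -4.16 ± 0.28, adjusted p = 1.67e-05). Fam135b, on the other side of Col22a1, read 1.41 and 2.12 in KO7 and 3.07 and 3.30 in wild type without passing (log2 change -0.61 ± 0.22, adjusted p = 0.143). In adult KO3 against set 2 both neighbours fell, Kcnk9 by -1.69 ± 0.28 and Fam135b by -1.41 ± 0.22 (adjusted p = 0.00937 for each). Col22a1 itself did not pass in KO7 against wild type (log2 change 0.34 ± 0.13, adjusted p = 0.178). Whether the neighbours bear on the collagens was not tested.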
